A study of Penicillium oxalicum with 6 samples.

Results

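A set of 60 genes of *Penicillium oxalicum*, out of 9822 in the tables, was described here: genes already expressed in the parental strain that ranked highest by how far every library of the strain without *rsrC* stood above every parental library. The members were chosen by their FPKM (fragments mapped to a gene, scaled by its length and by the mapped fragments of the library). A level of 20 FPKM or more in each library of the parental strain was met by 5692 genes, and of these the 60 with the highest ratio of the lowest Δ*rsrC* value to the highest Δ*ku70* value were taken, after IDs POX_f08105 to POX_f08149, POX_c04700 to POX_c04731 and POX_g08885 had been left out. These left-out IDs held 34 of the 5692 genes, and 3 of them would have ranked among the first 60. Because the ranking used the difference between the strains, that difference is given below as a description and without a test.

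RNA-seq was done on mycelium of 2 strains with 3 libraries each. The Δ*rsrC* libraries are labelled as a deletion of POX00418, an older gene number, in the Δ*PoxKu70* background, and the parental libraries are labelled POXKu70 with the genotype WT; the study names this comparison Δ*rsrC* against Δ*ku70*. Both strains therefore lack *ku70*, whose product takes part in the joining of broken DNA ends without a template, a loss that makes targeted gene replacement more frequent. Both were pre-grown for 24 h on glucose, and the mycelium was moved for another 24 h to a medium whose carbon source is raw starch in the treatment protocol, Avicel (a cellulose) in the treatment field, and commercial corn starch in the study. Whether the 3 Δ*rsrC* libraries came from 1 transformant or several was not given in the sources used here.

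*rsrC* codes for a protein with C2H2 zinc fingers, a fold in which pairs of cysteines and histidines hold a zinc ion and which commonly binds DNA. Such proteins can raise or lower the transcription of other genes, directly or through further regulators, so a gene that is higher in a deletion strain is not thereby known to be a target. In filamentous fungi the genes for secreted polysaccharide-degrading enzymes are switched by networks of such factors according to the carbon source, and the study placed *rsrC* in this system.

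As a check of the labels, *rsrC* (POX_a01508) was listed at 0 FPKM in each Δ*rsrC* library, against 27.1, 30.3 and 39.0 FPKM in the Δ*ku70* libraries. Each library listed 854 to 909 genes at 0. Absolute depth is unknown, and relative depth read from low values was 77.9% to 105% of that of Δ*ku70* replicate 1. In RNA from whole mycelium, fewer cells that express a gene and less RNA per cell cannot be told apart.

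The sources used here say little of what the members do. The annotation of the study's gene lists, shortened in the form used here to chromosomes a to c and the start of d, had an entry for 21 of the 60 genes. It called 20 of these a hypothetical protein, and for the other 39 no annotation was used here. The 1 member with a named class was POX_c04617, listed under the carbohydrate esterase families CE1 and CE7, which hold enzymes that remove acetyl or feruloyl groups from plant cell-wall polysaccharides. It was at 183, 192 and 171 FPKM in Δ*rsrC*, against 71.3, 61.4 and 49.5 FPKM in Δ*ku70*.

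The lowest Δ*rsrC* library stood above the highest Δ*ku70* library in all 60 members, as the rule fixes, and in 1134 of the 5692 genes (19.9%). That ratio reached 2 in 76 of the 5692 genes (1.34%), all 60 members among them. The opposite was more frequent: the lowest Δ*ku70* value stood above the highest Δ*rsrC* value in 2262 genes (39.7%) and was at least 2 times it in 105 genes (1.84%). This balance moved with the scaling of the libraries. The number of genes that met the 20 FPKM limit moved as well. After rescaling to equal sums (TPM), 45 of 5876 genes reached a ratio of 2 upward and 220 downward. After median-ratio scaling the counts were 102 and 69 of 5602 genes, and after quantile normalization 73 and 74 of 5502 genes.

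**Figure D1:**
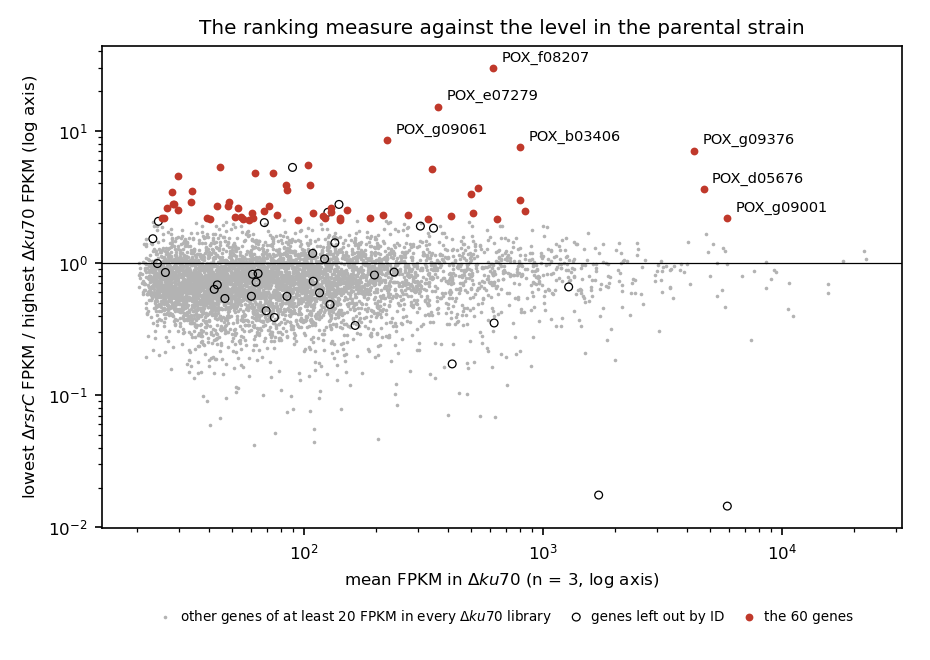
Each point is 1 of the genes at or above 20 FPKM in all Δ*ku70* libraries; the horizontal axis gives its mean FPKM in Δ*ku70* (n = 3) and the vertical axis the lowest Δ*rsrC* FPKM divided by the highest Δ*ku70* FPKM, both on log axes. The 60 genes (red) lie at ratios of 2.103 to 29.8 and span Δ*ku70* means of 25.4 to 5893 FPKM, and open circles are the genes left out by ID.

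The members spanned a wide range of levels. Their mean in Δ*rsrC* ran between 62.7 FPKM (POX_c04568) and 40068 FPKM (POX_g09376), with a median of 365 FPKM, and their mean in Δ*ku70* between 25.4 and 5893 FPKM, with a median of 90.0 FPKM. Over all 5692 genes the medians were 64.5 FPKM in Δ*rsrC* and 71.4 FPKM in Δ*ku70*. A mean of at least 1000 FPKM was reached by 17 members in Δ*rsrC* and by 3 in Δ*ku70*, POX_g09376, POX_d05676 and POX_g09001. The fold difference between the means had a median of 3.69 and ranged from 2.25 for POX_c03864 to 36.0 for POX_f08207, and for 40 of the 60 genes the ratio of lowest to highest library was under 3.

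POX_f08207 had the highest ratio, 29.8. It was at 23805, 20264 and 22615 FPKM in Δ*rsrC*, against 580, 680 and 595 FPKM in Δ*ku70*. Its libraries were close to each other within each strain (22228 ± 1802 FPKM in Δ*rsrC* and 618 ± 53.99 FPKM in Δ*ku70*, SD, n = 3 each). Ranked by FPKM within each library, it was the gene at position 5, 6 and 6 in Δ*rsrC*, and at position 366, 312 and 362 in Δ*ku70*. These positions do not depend on how the libraries are scaled against each other.

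POX_e07279 came next, with a ratio of 15.2. It was at 6882, 6920 and 8871 FPKM in Δ*rsrC*, against 335, 309 and 452 FPKM in Δ*ku70*. Replicate 3 was the highest library of both strains. POX_g09061, the third by ratio, was at 2080, 2525 and 3230 FPKM in Δ*rsrC*, against 195, 234 and 243 FPKM in Δ*ku70*, a fold difference of 11.7 between the means.

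The highest transcript level was that of POX_g09376, at 37871, 41058 and 41276 FPKM in Δ*rsrC*, against 5345, 4157 and 3357 FPKM in Δ*ku70*. It was the highest gene of the whole library in Δ*rsrC* replicates 2 and 3 and the third highest in replicate 1, and stood at position 27, 31 and 45 in Δ*ku70*. The Δ*rsrC* libraries were even (coefficient of variation, the SD divided by the mean, 4.76%), and the Δ*ku70* libraries less so (23.3%).

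POX_d05676 was at 21017, 25596 and 32199 FPKM in Δ*rsrC*, against 5807, 3923 and 4382 FPKM in Δ*ku70*. Its libraries spread by about the same relative amount in both strains, with coefficients of variation of 21.4% and 20.9%. POX_b03406 was the least even of the 6 most abundant members in both strains. It was at 9718, 8477 and 16946 FPKM in Δ*rsrC*, against 1120, 788.97 and 502 FPKM in Δ*ku70*.

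POX_g09001 showed the smallest relative difference of the 6 most abundant members, with a fold of 2.57 between the means. It was at 14296, 18120 and 13045 FPKM in Δ*rsrC*, against 5949, 5819 and 5911 FPKM in Δ*ku70*. The 3 parental libraries agreed within 1.13% (coefficient of variation), the lowest value among the members in that strain, so the spread of this gene lay almost wholly in Δ*rsrC*.

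The other 11 members at or above 1000 FPKM in Δ*rsrC* had means between 1052 and 3204 FPKM there. POX_g09290 was at 3512, 2621 and 3478 FPKM in Δ*rsrC*, against 638, 706 and 263 FPKM in Δ*ku70*, where replicate 3 stood apart. POX_g09275 was at 2422, 2127 and 2195 FPKM in Δ*rsrC*, against 415, 317 and 299 FPKM in Δ*ku70*. POX_f08417 was at 2967, 1812 and 1861 FPKM in Δ*rsrC*, against 473, 476 and 548 FPKM in Δ*ku70*, and here Δ*rsrC* replicate 1 was the high one.

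POX_d05346 and POX_f07896 were 3.66- and 3.198-fold higher, with means of 2932 ± 95.5 and 2698 ± 317 FPKM in Δ*rsrC* and of 802 ± 126 and 844 ± 138 FPKM in Δ*ku70* (SD, n = 3 each). For POX_g08849 the Δ*rsrC* values of 1311, 1182 and 664 FPKM stood against 84.5, 107 and 120 FPKM in Δ*ku70*, a 10.1-fold difference between means and the low replicate 3 of Δ*rsrC* set the ratio of 5.54. POX_b02637 averaged 1738 ± 283 FPKM in Δ*rsrC* and 509 ± 108 FPKM in Δ*ku70* (SD, n = 3 each), POX_h09470 1246 ± 106 and 412 ± 106 FPKM, and POX_e06650 1093 ± 402 and 273 ± 53.1 FPKM in the same order.

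POX_c03864 was the most even member in Δ*rsrC*. It was at 1459, 1455 and 1427 FPKM in Δ*rsrC*, against 628, 634 and 664 FPKM in Δ*ku70*, with coefficients of variation of 1.22% and 2.96%. Its fold of 2.25 was the lowest among the members, and it entered the ranking at position 56.

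Among the 20 genes of highest ratio, 9 stayed under 1000 FPKM in Δ*rsrC*. POX_f07766 had the highest ratio of these, 5.30, with 267, 280 and 313 FPKM in Δ*rsrC*, against 43.9, 39.5 and 50.4 FPKM in Δ*ku70*. POX_g09373 was at 467, 501 and 346 FPKM in Δ*rsrC*, against 72.0, 54.1 and 61.4 FPKM in Δ*ku70*. POX_c03946 was at 447, 435 and 777 FPKM in Δ*rsrC*, against 90.8, 66.1 and 65.6 FPKM in Δ*ku70*. The libraries of a strain lay close together for the first of these genes, while Δ*rsrC* replicate 3 was the lowest of its strain for POX_g09373 and the highest for POX_c03946.

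POX_c03584, near the 20 FPKM limit in the parental strain, was at 284, 259 and 181 FPKM in Δ*rsrC*, against 27.5, 39.9 and 22.1 FPKM in Δ*ku70*. POX_h09407 was at 755, 798 and 554 FPKM in Δ*rsrC*, against 72.3, 101 and 143 FPKM in Δ*ku70*. POX_g08638 was at 382, 366 and 382 FPKM in Δ*rsrC*, against 71.7, 81.7 and 102 FPKM in Δ*ku70*. The last of these was nearly constant in Δ*rsrC*, with a coefficient of variation of 2.52%.

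POX_b02924 was at 337, 193 and 145 FPKM in Δ*rsrC*, against 29.0, 32.0 and 41.4 FPKM in Δ*ku70*. POX_b03017 was at 108, 126 and 143 FPKM in Δ*rsrC*, against 27.2, 31.2 and 26.2 FPKM in Δ*ku70*. The Δ*rsrC* libraries thus lay in opposite order for the 2 genes, with replicate 1 the highest for the first and the lowest for the second.

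**Figure D2:**
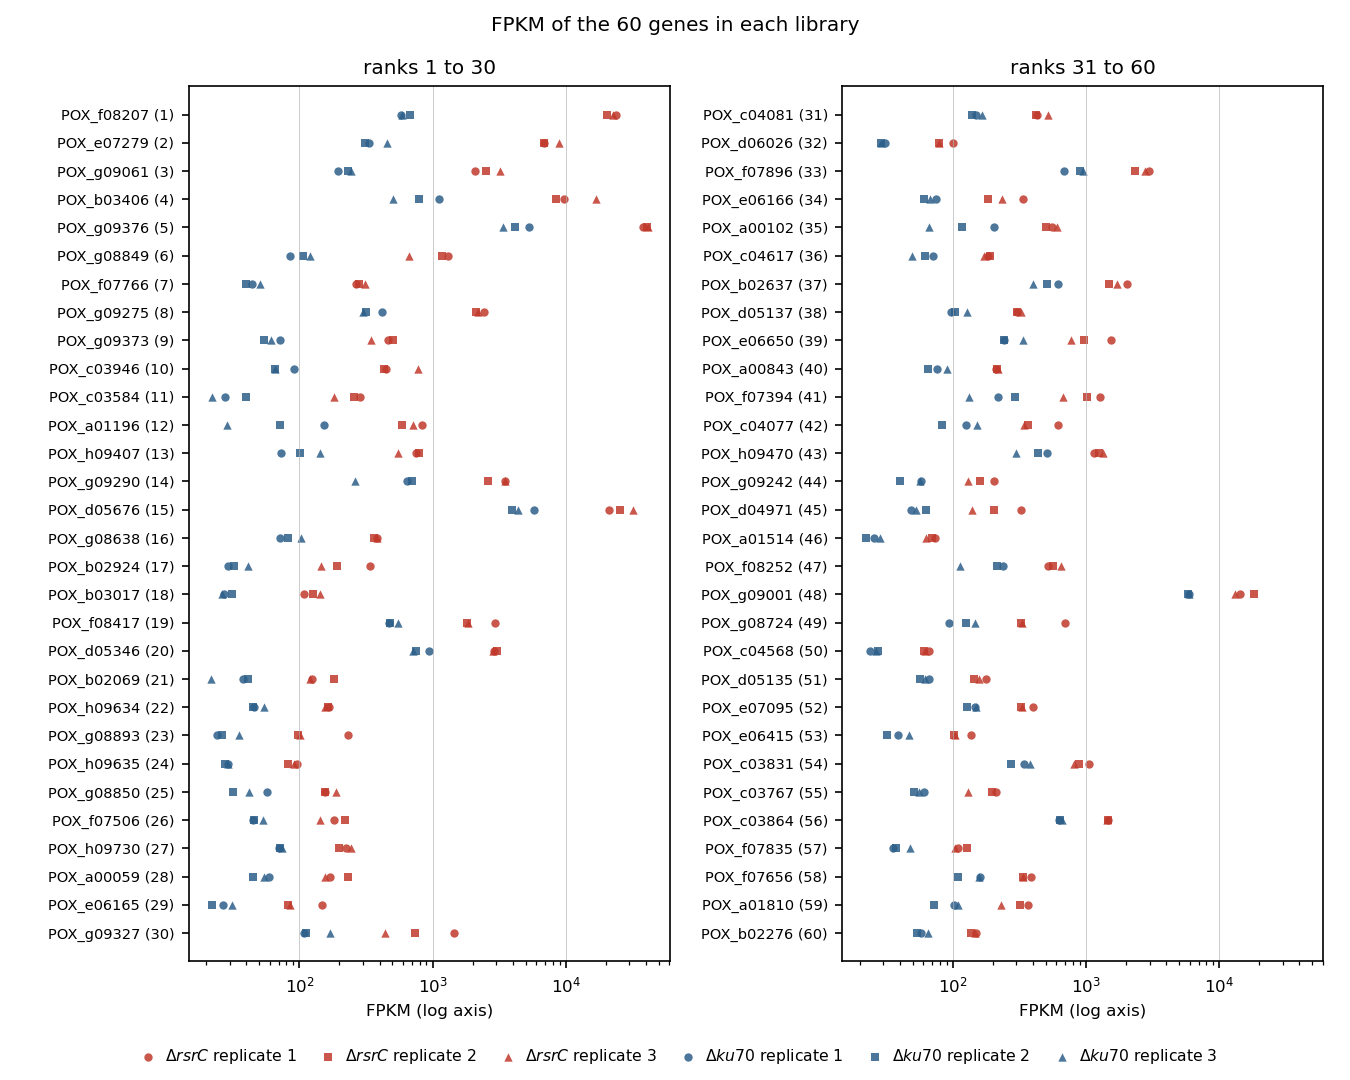
Each row is a member with its rank in brackets, and each point its FPKM in 1 library on a log axis (red, Δ*rsrC*; blue, Δ*ku70*; the symbol gives the replicate). In every row the 3 red points lie to the right of the 3 blue points, by 29.8-fold in the first row and 2.103-fold in the last when the nearest points are compared.

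At the limit of the ranking the genes changed little from rank to rank. Inside it, POX_f07656, POX_a01810 and POX_b02276 (ranks 58 to 60) had ratios of 2.115, 2.1034 and 2.1029. Outside it, POX_a01759, POX_b02810 and POX_d05153 (ranks 61 to 63) had ratios of 2.099, 2.097 and 2.090. POX_b02276 was at 149, 138 and 146 FPKM in Δ*rsrC*, against 57.3, 54.2 and 65.4 FPKM in Δ*ku70*, and POX_b02810 was at 133, 127 and 135 FPKM in Δ*rsrC*, against 51.1, 59.5 and 60.7 FPKM in Δ*ku70*. POX_b02810 is annotated to glycosyltransferase family GT5, which in plants and bacteria holds starch and glycogen synthases.

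The choice of members was then repeated with each library left out in turn, so that the values of that library had no part in it. Each time the 60 best genes of the other 5 libraries were looked at in the library left out, and those with at least a 2-fold difference were counted. The value of the other strain in this comparison had been used in the choice, so the comparison is only partly independent of it. High counts are therefore largely set by the choice, and they are given as a description and not as a test. In Δ*rsrC* replicates 1, 2 and 3, 60, 57 and 51 of the 60 genes were at least 2 times the highest Δ*ku70* value, where 4.15%, 2.07% and 1.76% of all genes over the same limit were. For Δ*ku70* replicates 1, 2 and 3, the lowest Δ*rsrC* value was at least 2 times that library for 51, 58 and 45 of the 60 genes, against 3.11%, 3.43% and 2.23% of all genes. The lists so chosen shared 43 to 59 genes with the members, and the fewest were shared when Δ*ku70* replicate 3 was left out. In that case the lowest Δ*rsrC* value was above the left-out library for 59 of the 60 genes, against 26.95% of all genes. The exception was POX_b03475, with a ratio of 0.903.

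As a group, the 60 genes took up a larger part of the transcriptome in Δ*rsrC*. They held 10.003%, 10.2% and 11.3% of summed FPKM in the Δ*rsrC* libraries, against 2.21%, 1.89% and 1.78% in the Δ*ku70* libraries. The mean share was 10.5% ± 0.725 in Δ*rsrC* and 1.96% ± 0.223 in Δ*ku70* (SD, n = 3 each), a difference of 8.55 percentage points and a 5.36-fold one. No test was made, since the genes were selected on this difference.

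Most of that share lay in 6 genes. POX_g09376, POX_d05676, POX_f08207, POX_g09001, POX_b03406 and POX_e07279 together held 8.13% ± 0.833 of summed FPKM in Δ*rsrC* and 1.29% ± 0.184 in Δ*ku70* (SD, n = 3 each). POX_g09376 alone held 2.65% and 0.333%, and POX_f08207 1.47% and 0.0479%, in the same order. The other 54 members held 2.38% ± 0.200 in Δ*rsrC* and 0.669% ± 0.0401 in Δ*ku70* (SD, n = 3 each), a 3.56-fold difference. Without POX_g09376 the difference over the remaining members was 6.24 percentage points.

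**Figure D3:**
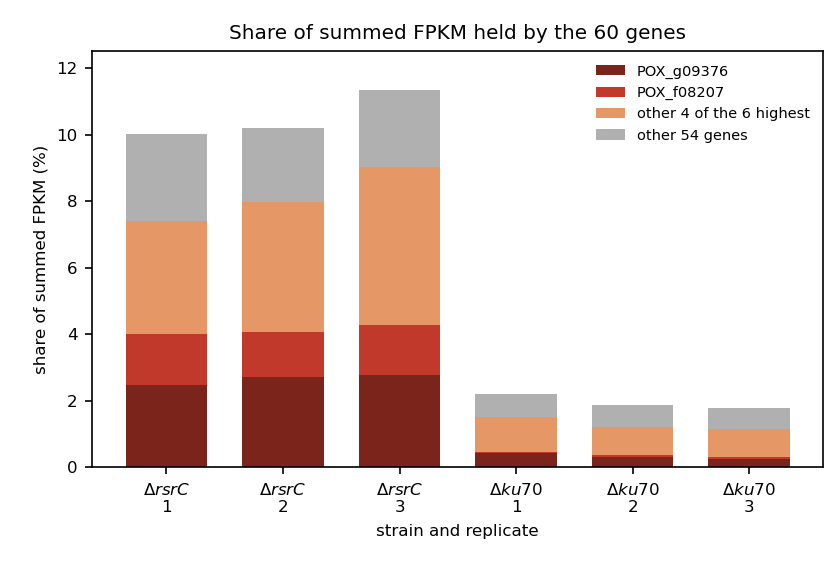
Stacked bars give the share of summed FPKM (%) held by the 60 genes in each library, split into POX_g09376, POX_f08207, the other 4 of the 6 highest genes and the other 54. The 3 Δ*rsrC* bars reach 10.003% to 11.3% and the 3 Δ*ku70* bars 1.78% to 2.21%, and the segment of POX_f08207 is barely visible in Δ*ku70*.

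Summed FPKM over all genes was 221984 higher in Δ*rsrC* than in Δ*ku70*, a net value in which rises and falls cancel. The rise of the 60 members, which were selected for it, equalled 60.3% of that net value. They held 159085 FPKM in Δ*rsrC* and 25309 FPKM in Δ*ku70*. The net change of the other 9762 genes equalled 39.7%. The rise of the 6 most abundant members alone equalled 47.9%. Since FPKM weighs a fragment by the length of its gene, these are shares of FPKM and not of fragments.

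Within the libraries, 4, 4 and 5 members were among the 10 highest genes of Δ*rsrC* replicates 1, 2 and 3, and 0 in each Δ*ku70* library. Among the 500 highest genes there were 26, 25 and 25 members in Δ*rsrC*, against 12, 12 and 10 in Δ*ku70*. The 3 members that were among the 50 highest genes in Δ*ku70*, POX_g09376, POX_d05676 and POX_g09001, were thus abundant transcripts of the parental strain as well.

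The spread among replicates was larger for the members than for the 5692 genes as a whole, although the rule favours even genes. The median coefficient of variation was 15.4% in Δ*rsrC* and 17.5% in Δ*ku70* for the members, and 9.94% in Δ*rsrC* and 11.2% in Δ*ku70* for all 5692 genes. The library that stood highest differed among the members. In Δ*rsrC*, 5 members had a highest library over 2 times the lowest, and in Δ*ku70* 6 members.

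Δ*rsrC* replicate 1 was the highest of the 3 Δ*rsrC* libraries for 34 of the 60 members, against 31.7% of all 5692 genes. In 9 members it was at least 1.5 times both other Δ*rsrC* libraries, which held for 1.69% of all 5692 genes. These were POX_b02924, POX_f08417, POX_g08893, POX_e06165, POX_g09327, POX_e06650, POX_c04077, POX_d04971 and POX_g08724. POX_g09327 was the least even, at 1443, 745 and 438 FPKM in Δ*rsrC*, against 109, 112 and 169 FPKM in Δ*ku70*. POX_g08724 was at 701, 323 and 328 FPKM in Δ*rsrC*, against 93.6, 125 and 147 FPKM in Δ*ku70*. The relative depth of Δ*rsrC* replicate 1 was the lowest of the 6 libraries, at 77.9%. Close to it were Δ*ku70* replicate 3 at 82.4% and Δ*rsrC* replicate 3 at 82.9%. The estimates are rough, since the commonest ratio behind that of Δ*rsrC* replicate 1 held 46 genes of low level. The part of depth in this pattern was not tested. Without Δ*rsrC* replicate 1, 59 of the 60 members were chosen again.

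Δ*rsrC* replicate 3 was at least 1.5 times both others in POX_b03406 and POX_c03946. It was the low one, with both others at least 1.5 times it, in POX_g08849, POX_g09327, POX_f07394 and POX_c03767. POX_f07394 was at 1281, 1010 and 671 FPKM in Δ*rsrC*, against 219, 291 and 132 FPKM in Δ*ku70*, so that replicate 3 was the lowest library of both strains.

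In Δ*ku70* the least even members were POX_a01196 and POX_a00102. POX_a01196 was at 835, 592 and 714 FPKM in Δ*rsrC*, against 153, 71.4 and 28.4 FPKM in Δ*ku70*. POX_a00102 was at 556, 499 and 604 FPKM in Δ*rsrC*, against 205, 117 and 66.4 FPKM in Δ*ku70*. Their coefficients of variation were 17.0% and 9.58% in Δ*rsrC* and 75.0% and 54.3% in Δ*ku70*. In Δ*ku70* they were highest in replicate 1 and lowest in replicate 3, as were several other members, POX_b03406, POX_b02637 and POX_g09376 among them. Of the 60 members, 22 were highest in Δ*ku70* replicate 1 and 30 in Δ*ku70* replicate 3, against 27.0% and 43.5% of all 5692 genes.

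**Figure D4:**
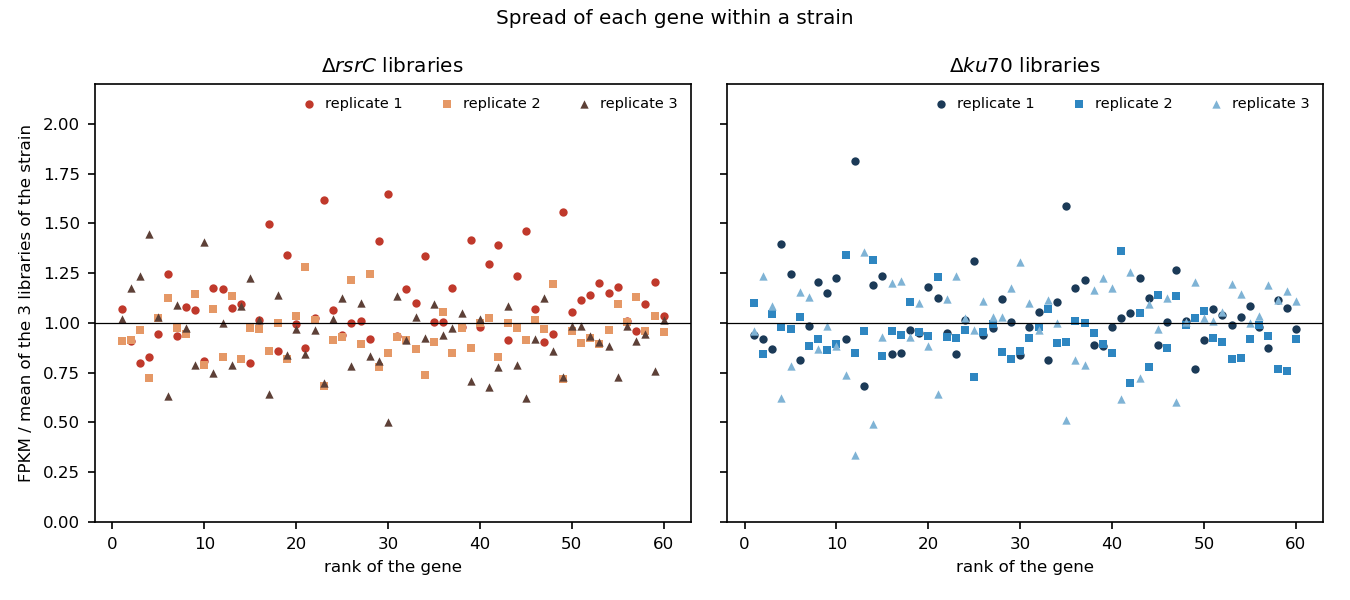
For each member, placed by rank, the FPKM of each library is divided by the mean of the 3 libraries of its strain (left, Δ*rsrC*; right, Δ*ku70*; colour and symbol give the replicate). Replicate 1 lies highest for 34 of 60 genes in Δ*rsrC*, and the widest column is that of POX_a01196 (rank 12) in Δ*ku70*.

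The members were found on all 8 chromosomes. By the letter of the ID, 13 were on chromosome g, which held 8.64% of the 5692 genes and 21.7% of the members, while chromosome a held 20.3% of the genes and had 6 members. The letter g corresponds to chromosome VII in the RefSeq table of strain HP7-1. The genes of chromosome g as a whole were shifted little: their median log2 change was -0.08, against -0.16 over the 5692 genes, and 22.2% of them had a lowest Δ*rsrC* value above the highest Δ*ku70* value, close to the 19.9% of all. The members POX_f08207 and POX_f08252 lie on the same chromosome as the first left-out range, which ends at POX_f08149.

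Gene order was compared because neighbouring fungal genes are often transcribed together. Of the 60 members, 3 pairs stood side by side: POX_e06165 with POX_e06166, POX_g08849 with POX_g08850, and POX_h09634 with POX_h09635. Another 3 pairs lay within 4 gene numbers of each other, POX_d05135 with POX_d05137, POX_g09373 with POX_g09376, and POX_c04077 with POX_c04081. None of the 59 members found in the RefSeq table overlapped another gene there.

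In the POX_h09634 pair both genes were even. POX_h09634 was at 167, 165 and 157 FPKM in Δ*rsrC*, against 46.0, 45.1 and 54.3 FPKM in Δ*ku70*. POX_h09635 was at 95.8, 81.9 and 91.8 FPKM in Δ*rsrC*, against 28.9, 27.5 and 29.3 FPKM in Δ*ku70*. The folds of their means, 3.36 and 3.14, were close to each other.

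In the POX_e06165 pair both genes had Δ*rsrC* replicate 1 as the high library. POX_e06165 was at 149, 82.0 and 85.1 FPKM in Δ*rsrC*, against 26.8, 21.9 and 31.4 FPKM in Δ*ku70*. POX_e06166 was at 336, 185 and 233 FPKM in Δ*rsrC*, against 75.1, 60.9 and 67.7 FPKM in Δ*ku70*. Their folds were 3.94 and 3.70.

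The POX_g08849 pair differed in size and in pattern. Where POX_g08849 was 10.1-fold higher, POX_g08850 was 3.81-fold higher, at 156, 154 and 187 FPKM in Δ*rsrC*, against 57.01, 31.6 and 41.9 FPKM in Δ*ku70*. Δ*rsrC* replicate 3 was the lowest library for the first gene and the highest for the second.

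Genes next to a member in the order of deposited IDs had not been chosen by the rule. They were tested with limma on log2(FPKM + 1) over all 8605 genes that averaged 1 FPKM or more. Of 113 such genes, 101 were tested. At an adjusted p-value under 0.05, 17 of these (16.8%) rose and 22 (21.8%) fell in Δ*rsrC*, where 13.8% of all tested genes rose and 25.6% fell. With the adjacent pairs of members not counted, the shares beside the members were thus near the background in both directions. The median log2 change was -0.01 beside the members and -0.13 over all tested genes. After TPM rescaling 9 of these genes (8.91%) rose and 33 (32.7%) fell, against 8.62% and 42.5% of all tested genes. After median-ratio scaling 23 (22.8%) rose and 17 (16.8%) fell, against 18.9% and 17.3%.

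The 3 largest rises beside a member were those of POX_e06167, POX_d05136 and POX_f07767. POX_e06167, next to the POX_e06165 pair, was at 75.0, 34.1 and 69.9 FPKM in Δ*rsrC*, against 17.2, 4.65 and 14.04 FPKM in Δ*ku70*, a log2 change of 2.31 (SE 0.49, adjusted p = 0.0117 by limma). On the other side of that pair, POX_e06164 differed by 0.61 on the log2 scale (adjusted p = 0.244 by limma), with 19.3, 5.57 and 13.0 FPKM in Δ*rsrC* and 6.84, 6.41 and 8.07 FPKM in Δ*ku70*. The rise thus passed the test on 1 side only, and the difference between the sides was not tested.

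POX_d05136 lies between 2 members, and by its parental level it was too low to be one. It was at 26.3, 16.04 and 24.4 FPKM in Δ*rsrC*, against 9.06, 8.01 and 5.71 FPKM in Δ*ku70*, a log2 change of 1.43 (SE 0.23, adjusted p = 0.00522 by limma). The members on its sides were close in fold: POX_d05135 averaged 160 ± 17.5 FPKM in Δ*rsrC* and 61.5 ± 4.51 FPKM in Δ*ku70*, and POX_d05137 312 ± 12.9 and 109 ± 15.8 FPKM in the same order (SD, n = 3 each). The Δ*rsrC* and Δ*ku70* libraries of POX_d05136 did not overlap, which the rule fixes for the 2 members. Among the 5692 genes that met the parental limit, the libraries were separate upward in 19.9% and downward in 39.7%.

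POX_f07767, beside POX_f07766, was at 85.3, 84.6 and 74.1 FPKM in Δ*rsrC*, against 34.5, 36.8 and 34.5 FPKM in Δ*ku70*, a log2 change of 1.18 (SE 0.10, adjusted p = 8.36e-04 by limma). Both flanks rose for 3 members, which were picked out after their values were seen. How often both flanks of a gene rise over all genes was not computed. Beside POX_f07656, at 388, 339 and 335 FPKM in Δ*rsrC* and 159, 109 and 158 FPKM in Δ*ku70*, POX_f07655 had a log2 change of 1.03 (adjusted p = 0.00976 by limma) and POX_f07657 one of 1.05 (adjusted p = 0.00781 by limma). Beside POX_g08893, the flanks were POX_g08894, with a log2 change of 1.15 (adjusted p = 0.0131 by limma), and POX_g08892, a transcription factor gene that the study names, with 0.51 (adjusted p = 0.0469 by limma). POX_g08893 itself was at 232, 98.5 and 100 FPKM in Δ*rsrC*, against 23.9, 26.2 and 35.0 FPKM in Δ*ku70*. The highest adjusted p-value over the alternatives was 0.0512 for POX_g08894 and 0.169 for POX_g08892. Beside POX_a00059, POX_a00060 had a log2 change of 0.91 (adjusted p = 0.00632 by limma) and POX_a00058, annotated to family AA3 of oxidoreductases that act with carbohydrate-degrading enzymes, one of 0.45 (adjusted p = 0.0165 by limma, up to 0.114 over the alternatives).

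The 3 largest falls beside a member were those of POX_c04082, POX_c04080 and POX_b02923, and the first 2 of these stand on either side of 1 member, POX_c04081. That gene was at 425, 422 and 516 FPKM in Δ*rsrC*, against 148, 140 and 167 FPKM in Δ*ku70*. POX_c04082, annotated as a putative oleate delta-12 desaturase, an enzyme that adds a double bond to a fatty acid, was at 114, 109 and 141 FPKM in Δ*rsrC*, against 532, 676 and 246 FPKM in Δ*ku70*, a log2 change of -1.88 (SE 0.36, adjusted p = 0.00822 by limma). POX_c04080, annotated to glycosyltransferase families GT2 and GT21, was at 33.5, 35.8 and 39.4 FPKM in Δ*rsrC*, against 133, 105 and 89.7 FPKM in Δ*ku70*, a log2 change of -1.55 (SE 0.16, adjusted p = 0.00148 by limma). A raised gene thus lay directly between 2 lowered ones.

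POX_b02923, annotated as a hypothetical protein, fell beside POX_b02924, to 7.92, 7.44 and 8.99 FPKM in Δ*rsrC*, against 19.97, 30.5 and 15.5 FPKM in Δ*ku70*, a log2 change of -1.29 (SE 0.24, adjusted p = 0.00760 by limma). Of the 12 genes beside the 6 most abundant members, 2 rose, 3 fell, 6 did not pass the test and 1 was not tested. Beside POX_f08207, POX_f08206 was listed at 0 in all 6 libraries, and POX_f08208 fell with a log2 change of -0.66 (adjusted p = 0.0242 by limma, up to 0.0812 over the alternatives). Beside POX_g09376, POX_g09375 rose with a log2 change of 0.69 (adjusted p = 0.0422 by limma, up to 0.131 over the alternatives), at 42.2, 40.3 and 25.5 FPKM in Δ*rsrC* and 24.8, 22.0 and 18.0 FPKM in Δ*ku70*. Beside POX_e07279, POX_e07280 rose with a log2 change of 0.95 (adjusted p = 0.0130 by limma), at 4.83, 4.46 and 4.91 FPKM in Δ*rsrC* and 2.06, 1.5 and 2.40 FPKM in Δ*ku70*. POX_b03405, beside POX_b03406, fell by 0.89 on the log2 scale (adjusted p = 0.0208 by limma, up to 0.0734 over the alternatives), and POX_g09000, beside POX_g09001, by 0.66 (adjusted p = 0.00763 by limma).

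**Figure D5:**
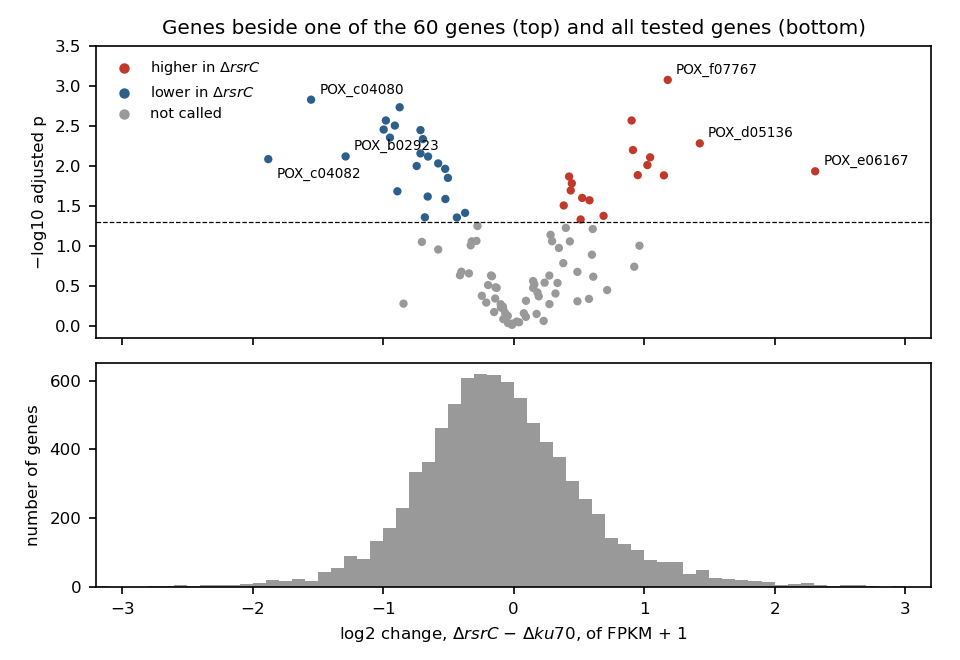
Top, each of the 101 tested genes beside a member, with its log2 change of FPKM + 1 (Δ*rsrC* minus Δ*ku70*) against the −log10 of its limma adjusted p-value; the dashed line marks 0.05, and 17 genes rose (red) and 22 fell (blue). Bottom, the number of all tested genes by log2 change.

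POX_a01514 is the member closest to the deleted locus, 6 gene numbers after *rsrC*. It was at 73.1, 69.5 and 62.9 FPKM in Δ*rsrC*, against 25.5, 22.2 and 28.6 FPKM in Δ*ku70*, a fold of 2.69. Of the genes at its sides, POX_a01513 did not exceed 1.12 FPKM in any library and was not tested, and POX_a01515 had a log2 change of -0.28 with a limma adjusted p-value of 0.0870. An effect of the replacement cassette and one of the lost protein cannot be told apart here, since only 1 kind of deletion strain was compared.

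The remaining members were of moderate level, with means of 62.7 to 987 FPKM in Δ*rsrC*. They included POX_b02069 (142 ± 34.8 FPKM in Δ*rsrC* and 33.6 ± 10.5 FPKM in Δ*ku70*), POX_h09730 (222 ± 22.9 and 71.7 ± 1.98 FPKM), POX_f07506 (182 ± 39.3 and 47.9 ± 4.55 FPKM), POX_a00059 (186 ± 40.03 and 53.0 ± 7.17 FPKM), POX_d06026 (85.7 ± 12.6 and 29.6 ± 1.36 FPKM) and POX_a00843 (214 ± 4.29 and 77.1 ± 12.7 FPKM; SD, n = 3 each, in the same order). Their folds lay between 2.77 (POX_a00843) and 4.22 (POX_b02069). POX_c03831 averaged 925 ± 125 FPKM in Δ*rsrC* and 330 ± 53.5 FPKM in Δ*ku70*, and POX_f08252 578 ± 65.3 and 188 ± 66.3 FPKM in the same order (SD, n = 3 each). In that order, POX_g09242 averaged 164 ± 36.9 and 51.4 ± 9.82 FPKM, POX_e07095 351 ± 43 and 141 ± 11.6 FPKM, POX_e06415 114 ± 19.9 and 39.2 ± 7.4 FPKM and POX_f07835 113 ± 13.3 and 40.3 ± 6.79 FPKM (SD, n = 3 each). The lowest member by level, POX_c04568, averaged 62.7 ± 3.01 FPKM in Δ*rsrC* and 26.0 ± 1.94 FPKM in Δ*ku70* (SD, n = 3 each).

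The ratios of the members moved with the scaling of the libraries. The lowest Δ*rsrC* value stayed above the highest Δ*ku70* value in all 60 genes after TPM rescaling, median-ratio scaling and quantile normalization, with lowest ratios of 1.80, 2.28 and 1.56, a direction that the choice of members largely fixes. The log2 change of POX_f08207 was 4.94, 5.31 and 4.73 under these, against 5.17 as deposited. A ratio of 2 was kept by 40, 60 and 55 of the 60 members.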

How the data were processed

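For each library the deposited values are the authors' FPKM for 9822 genes, rounded to 2 decimals and not pooled. The study gives BGISEQ-500 sequencing, BWA, Bowtie2, RSEM and NOISeq; the submitters' processing notes name bcl2fastq and HISAT2. No genome build was named, so the RefSeq table of assembly ASM172317v3, which matched 9718 IDs, was used for chromosome names, overlaps and gene order only, and no coordinates or sequences are given. Relative depth was read from the commonest FPKM ratio of genes between 0.1 and 2 FPKM.

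Groups were taken from the sample titles. Members were ranked as described above. They, the lists and the tests were chosen with earlier results of these data known. The text names the 20 members of highest ratio, those of at least 1000 FPKM in Δ*rsrC*, those annotated or adjacent, ranks 58 to 63, and the 3 largest called changes each way among genes beside a member; other names were chosen after their values were seen. Neighbours were the nearest deposited IDs, since ID numbers rose with position in 9695 of 9697 adjacent RefSeq pairs of deposited IDs. Some neighbours skip a number, as POX_c04568 and POX_c04571 do, and a gene without deposited values could lie between them.

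Tests used limma 3.58.1 (R 4.3.3) on log2(FPKM + 1), which understates changes of low genes, over 8605 genes that averaged 1 FPKM or more, with an intensity trend, no covariate and two-sided Benjamini-Hochberg adjustment. The fit was tested on simulated data. The study calls the replicates of its other RNA-seq comparisons biological, and does not use the word for the libraries used here. P-values measure only the spread between these samples. Alternatives were another scaling, pseudocount (0.1), filter, level limit (10 or 50 FPKM), ranking measure, a replicate block and the omission of each library. Planned comparisons of paralogs, proteins and promoters were not run.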

Additional observations from a re-analysis of the deposited data

How the results depend on the processing

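The number of members chosen again was 57 after TPM rescaling, 58 with median-ratio factors, 51 by quantiles, 48 with a limit of 10 FPKM, 39 with a limit of 50 FPKM, 43 when ranked by the ratio of means and 57 with nothing left out; the limit of 50 FPKM excludes lower genes by construction. It was 43 to 59 without 1 library, and 22 genes were chosen under all 13 alternatives. Of 600 log2 changes of members under the alternatives, 30 moved by at least the larger SD within a strain. The omission of a single library cannot move a log2 change that far, so these 30 came from the other alternatives. The sign of the changes is set by how the members were chosen. The difference in share of summed FPKM was 8.14 to 8.81 percentage points without 1 library, 7.45 after quantile normalization, which compresses the highest values, and 6.24 without POX_g09376.

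Among genes beside a member, 9 rose after TPM rescaling and 11 with a replicate block, against 17. Without 1 library 10 to 15 rose, fewest without Δ*ku70* replicate 1 (10) and Δ*rsrC* replicate 1 (11), and 16 to 20 fell. Of all tested genes, 742 rose and 3653 fell after TPM rescaling, 785 and 1428 with the replicate block, and 762 to 1271 and 1364 to 2205 without 1 library, fewest without Δ*rsrC* replicate 1 (762 and 1364), where 768 rose without Δ*rsrC* replicate 2. After median-ratio scaling 1623 rose and 1490 fell. Over all tested genes the median log2 change moved with the scaling: -0.13 as deposited, -0.35 as TPM, -0.0028 with median-ratio factors and -0.037 by quantiles. The 6 genes named as the largest changes beside a member passed in all 12 alternative fits. Same-numbered libraries deviated from their group means with correlations of 0.0046, -0.13 and -0.24, and the libraries were not treated as paired. FPKM hold no counts, so no detection limit was computed. Alternatives for paralogs were not run, as no protein sequences were used here.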
